A study of Mus musculus with 12 samples.

Results

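The mouse Notch family has 4 receptor genes (Notch1, Notch2, Notch3 and Notch4), and the genes of its classical ligands are Dll1, Dll3, Dll4, Jag1 and Jag2. These 9 genes were looked up among the 40039 merged loci of poly(A) RNA libraries of mouse embryonic stem cells, by matching the exon and intron lengths of annotated transcripts to the deposited transcript models. Of the 9 genes, 7 had a locus of their own, while Notch4 and Dll3 lay in loci that also hold other genes. The 4 groups, of 3 libraries each, were Notch1-/- cells at day 6, WT cells at day 6, Notch1-/- cells at day 0 and WT cells at day 0. All carried the strain label C57BL/6J. Day 0 cells were undifferentiated, grown with LIF on a feeder layer of mouse embryonic fibroblasts or on gelatin alone, and the labels do not say which applied to which library. Day 6 cells were embryoid bodies, aggregates formed in hanging drops to start cardiac differentiation. The labels do not say which part of Notch1 was deleted, nor how many clones each genotype stands for. The design text calls the libraries biological replicates without naming separate cultures, so the p-values measure the spread between these libraries, which may be technical.

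Notch receptors and their ligands are membrane proteins that signal between touching cells. A ligand on one cell pulls on a receptor on its neighbour, the receptor is cut by ADAM proteases and then by gamma-secretase, and its freed intracellular part joins the DNA-binding protein RBPJ to switch on target genes of the Hes and Hey families. The receptors share this route but are made in different cells: Notch1 and Notch4 are known from endothelium, where Dll4 is a main ligand, and Notch3 from vascular smooth muscle. Dll1 and Dll3 are known from the presomitic mesoderm of the embryo, where Dll3, unlike the other ligands, does not activate receptors on neighbouring cells.

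Each library held between 100637179 and 134662426 counts, and 23991 loci passed the filter on low counts, the 7 single-gene loci and both merged loci among them. Libraries of one group differed by far more than counting noise, with a chi-square per degree of freedom of 41.3 to 166 between day 6 replicates and 120 to 404 between day 0 replicates. The labelled cell type was checked on 9 linked markers of pluripotent cells (Pou5f1 and Sox2 were not linked to a locus of their own). Their summed level at day 0 was 2200 to 3560 CPM in Notch1-/- libraries and 2620 to 3300 CPM in WT libraries, against 780 to 1230 CPM in Notch1-/- and 516 to 699 CPM in WT libraries at day 6. CPM is the count as a rate of the library size after TMM scaling, edgeR's correction for library composition. Summed markers of fibroblasts, the feeder cell type, varied most at day 0, with 689, 1990 and 2730 CPM in Notch1-/- libraries 1, 2 and 3 and 2240, 1340 and 4080 CPM in WT libraries 1, 2 and 3. At day 6 the same 18 markers summed to 275 to 391 CPM in Notch1-/- libraries and 1720 to 2210 CPM in WT libraries. By edgeR 2 were higher and 9 lower, where 13.7% of all loci were called higher and 14.4% lower. The markers were not alike at day 6. Col1a1 averaged 28.4 CPM in Notch1-/- and 734.4 CPM in WT libraries. Lox averaged 1.89 CPM in Notch1-/- and 1.32 CPM in WT libraries at day 6, against 210.0 and 216.7 CPM in the same order at day 0. The part of fibroblasts or feeder cells in the day 6 values below was not tested. Of the neural progenitor markers only 3 of 8 could be linked to a locus, with 1 higher, 1 lower and a sum of 21.9 to 29.0 CPM in Notch1-/- and 17.4 to 21.0 CPM in WT libraries at day 6.

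Notch1, the targeted gene, was lower in Notch1-/- cells on both days. Its locus (XLOC_020472) lies on the minus strand of chromosome 2, from 26301026 to 26363148 (all loci are given on genome build mm9), and its annotated model has 34 exons. At day 6 it had 6.80, 4.90 and 4.95 CPM in Notch1-/- libraries, against 37.9, 30.8 and 31.1 CPM in WT libraries. At day 0 it had 3.798, 3.868 and 4.591 CPM in Notch1-/- libraries, against 61.5, 24.7 and 34.0 CPM in WT libraries. The genotypes did not overlap on either day, and WT library 1 stood above the other 2 WT libraries at day 0. The day 6 log2 fold change, Notch1-/- over WT, was -2.58 (SE 0.30, edgeR adjusted p = 6.79e-05), and that of day 0 was -3.29 (SE 0.30, adjusted p = 3.89e-05). Per length, in the FPKM values the authors deposited, the residue was 0.310 ± 0.108 in Notch1-/- and 4.01 ± 0.446 in WT cells at day 6 (SD, n = 3 each), and 0.378 ± 0.137 in Notch1-/- and 5.18 ± 2.90 in WT cells at day 0.

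The residual counts cannot be placed within the gene, because the table gives 1 count per locus. Of the exon length of the annotated Notch1 model, 44.6% is shared with an antisense locus on the opposite strand (XLOC_019065, linked to 0610009E02Rik), and the strand setting of the counting is not given in the sources used here. That antisense locus had 0.243, 0.203 and 0.194 CPM in Notch1-/- libraries and 0.778, 0.685 and 0.607 CPM in WT libraries at day 6. Reads from the pair cannot be told apart.

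At day 6, 2 of the 7 genes with a locus of their own were higher in Notch1-/- embryoid bodies, 2 were lower and 3 did not pass the test. The genes that rose were Dll1 and Jag2, and those that fell were Notch1 and Dll4. Notch1 is the gene targeted in these cells, and it is among the 7 in this and all later counts. Of all loci tested, 28.1% were called in this comparison, 13.7% higher and 14.4% lower by edgeR at an adjusted p below 0.05. In 6 of the 7 genes the CPM values of the genotypes did not overlap, as in 59.2% of all loci tested. At day 0, 3 of the 7 genes were lower in Notch1-/- cells, none was higher and 4 did not pass, where 9.56% of all loci were called, 3.71% higher and 5.86% lower. On the FPKM scale, where the filter on low values left out Dll4, limma called 3 of 6 genes at day 6 (32.1% of loci) and 2 of 6 at day 0 (6.2% of loci). The 3 genes lower at day 0 by counts were Notch1, Dll1 and Jag1, and 2 of the 7 genes, Notch1 and Jag1, had no overlap between genotypes, against 20.6% of all loci tested.

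**Figure D1:**
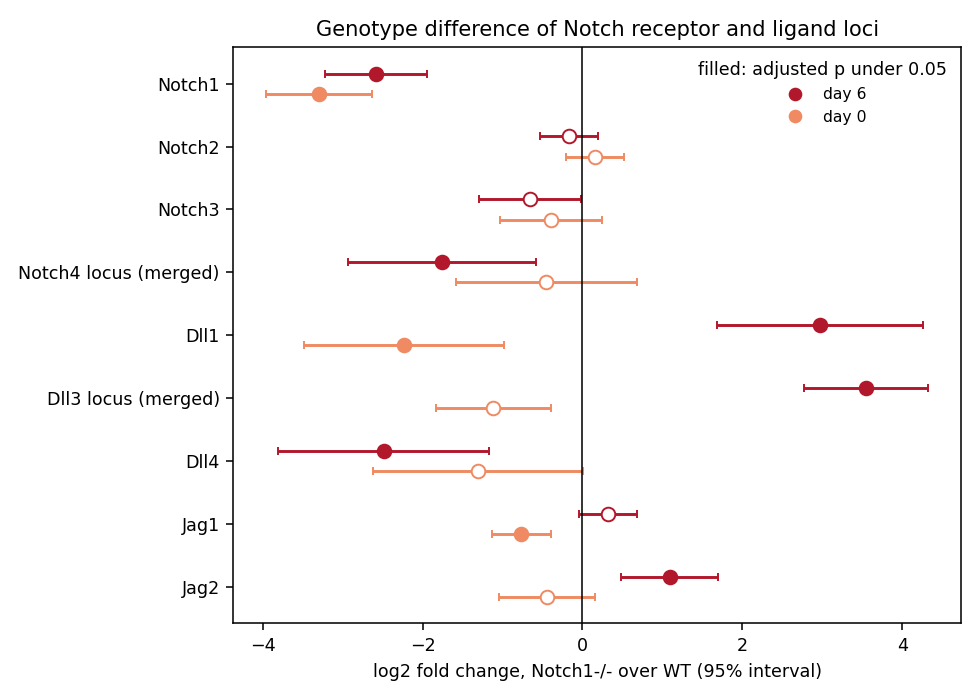
Log2 fold change of each Notch receptor and ligand locus, Notch1-/- over WT (x axis), at day 6 (dark) and day 0 (light), from edgeR over 12 libraries; bars are 95% intervals and filled points have an adjusted p under 0.05. Dll1 and the merged Dll3 locus lie right of 0 at day 6 (2.97 and 3.55) and left of it at day 0 (-2.23 and -1.12), while Notch2 lies close to 0 on both days.

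The question whether another receptor made up for Notch1 was first asked of Notch2, a receptor that many embryonic tissues express. Its locus (XLOC_022732, chromosome 3, 97817461 to 97954290, plus strand) shares no exon length with another locus. At day 6 Notch2 had 160.8, 163.1 and 141.6 CPM in Notch1-/- libraries, against 181.2, 180.0 and 162.2 CPM in WT libraries. At day 0 it had 76.5, 123.4 and 129.8 CPM in Notch1-/- libraries, against 97.4, 96.6 and 101.0 CPM in WT libraries. These CPM values overlapped on both days, with Notch1-/- library 1 lowest of all at day 0. Read by number at day 0, Notch1-/- was lower than WT for library 1 and higher for libraries 2 and 3. On the FPKM scale the day 6 values did not overlap, at 8.11 to 9.17 in Notch1-/- libraries and 9.83 to 10.7 in WT libraries. The log2 fold change was -0.17 at day 6 (95% interval -0.53 to 0.19, edgeR adjusted p = 0.485) and 0.16 at day 0 (-0.20 to 0.52, adjusted p = 0.556). In folds these intervals run from 0.691 to 1.15 at day 6 and from 0.869 to 1.44 at day 0. At day 0 the sign turned to -0.01 in limma's fit on log2(FPKM + 1). Without Notch1-/- day 0 library 1 the day 0 value became 0.37, with an adjusted p of 0.0494. That library also had the lowest sum of feeder markers, 689 CPM. In Notch1-/- day 0 libraries 2 and 3 the feeder sum was 1990 and 2730 CPM. In WT day 0 libraries 1, 2 and 3 it was 2240, 1340 and 4080 CPM, beside the narrow range of Notch2 given above. The part of the feeder cells in the Notch2 values was not tested.

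Notch3 did not pass the test on either day and was nominally lower in Notch1-/- cells on both. Its locus (XLOC_015740, chromosome 17, 32236151 to 32303845, minus strand) shares 6.38% of its exon length with another locus. At day 6 it had 264.5, 243.4 and 182.6 CPM in Notch1-/- libraries, against 389.4, 379.2 and 322.0 CPM in WT libraries. No value of one genotype reached the other. The log2 fold change was -0.66 (SE 0.29, 95% interval -1.30 to -0.02, edgeR adjusted p = 0.114). The call changed with the libraries in the fit. It passed in a fit of the day 6 libraries alone (adjusted p = 0.00509), which called 52.8% of all loci. It also passed without Notch1-/- day 0 library 1 (-0.67, adjusted p = 0.0259), where 29.6% of all loci were called. At day 0 the values were 180.3, 73.4 and 92.7 CPM in Notch1-/- libraries, against 204.2, 123.5 and 126.4 CPM in WT libraries, with library 1 highest in both genotypes and the Notch1-/- library lower in each of the 3 same-numbered pairs. The day 0 log2 fold change was -0.39 (95% interval -1.03 to 0.25, edgeR adjusted p = 0.403), and -0.86 (adjusted p = 0.0284) without Notch1-/- library 1.

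Markers of smooth muscle and pericytes, cells known for Notch3, also differed at day 6. Of 7 tested markers, 2 were higher and 3 lower in Notch1-/- embryoid bodies, where 13.7% of all loci were called higher and 14.4% lower. The list's sum was 94.3 to 133 CPM in Notch1-/- libraries and 542 to 823 CPM in WT libraries. Acta2, the smooth muscle actin gene, had 3.35, 3.75 and 6.13 CPM in Notch1-/- libraries and 375.0, 458.1 and 319.3 CPM in WT libraries, a log2 fold change of -6.44 (SE 0.55). Rgs5 and Pdgfrb were also lower. The 2 higher markers were Cnn1 and Mcam. Cnn1 had 19.5, 18.4 and 27.7 CPM in Notch1-/- libraries and 4.51, 5.11 and 2.81 CPM in WT libraries. Mcam averaged 32.5 CPM in Notch1-/- and 21.2 CPM in WT libraries. Tagln, a smooth muscle gene whose locus shares all its exon length with others, had 0 counts in all 12 libraries, while its FPKM averaged 42.0 in Notch1-/- and 40.9 in WT libraries. The part of these cells in the Notch3 values was not tested. In bulk RNA, fewer cells of a type and less RNA per cell cannot be told apart.

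**Figure D2:**
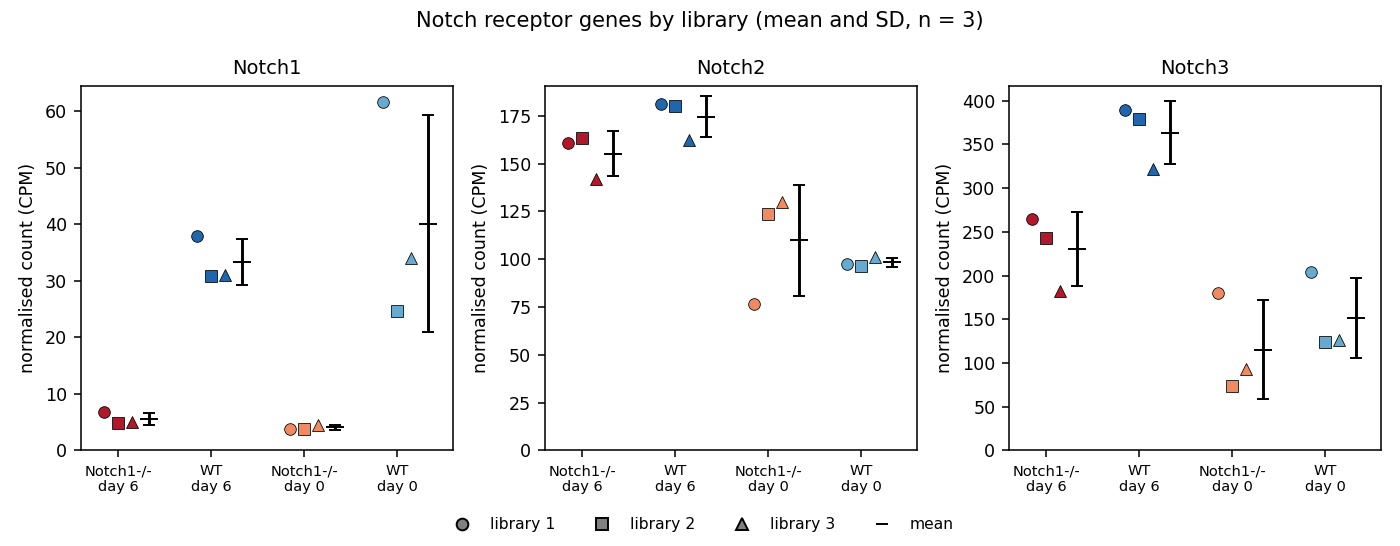
Normalised counts (CPM, y axis) of Notch1, Notch2 and Notch3 in each of the 12 libraries by group (x axis); dashes and bars give the mean and SD of 3 libraries. Notch1 is near the bottom of its panel in all 6 Notch1-/- libraries, and the 6 day 6 libraries hold the highest Notch2 values.

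Notch4 had no level of its own. Its exons make up 33.1% of a locus (XLOC_015008, chromosome 17, 34363120 to 34740983, plus strand) that also holds Ager, Pbx2 and Gpsm3, and 84.2% of the exon length of that locus is shared with other loci, mainly with the locus of Rnf5 on the opposite strand. The merged locus had 0.828, 0.788 and 1.12 CPM in Notch1-/- libraries and 3.77, 3.04 and 2.44 CPM in WT libraries at day 6, a log2 fold change of -1.76 (SE 0.55, edgeR adjusted p = 0.0297). At day 0 it had 15.0, 3.18 and 2.56 CPM in Notch1-/- libraries and 11.1, 9.74 and 7.59 CPM in WT libraries (adjusted p = 0.596). The day 6 call was lost in 5 of the fits that left out 1 library, those without WT day 6 library 1 or 2 and without any 1 of the Notch1-/- day 6 libraries (log2 fold changes -1.58 to -1.92, adjusted p 0.0596 to 0.0939). It was also lost on the FPKM scale (-0.49, adjusted p = 0.129 in limma), and how much of the counts came from Notch4 cannot be told apart. It was therefore left out of the receptor counts.

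Levels of different genes can be compared per length, on the FPKM scale. Among the 3 receptors with a locus of their own, Notch3 was the highest in every group on average, at 18.6 ± 3.42 FPKM in Notch1-/- and 31.0 ± 2.61 FPKM in WT cells at day 6, and 9.10 ± 4.78 FPKM in Notch1-/- and 13.1 ± 5.45 FPKM in WT cells at day 0 (SD, n = 3 each). Notch2 followed with 8.80 ± 0.599 FPKM in Notch1-/- and 10.3 ± 0.455 FPKM in WT cells at day 6, and 5.99 ± 1.44 FPKM in Notch1-/- and 5.93 ± 0.608 FPKM in WT cells at day 0. Notch1 was below Notch2 in both day 6 groups and in Notch1-/- cells at day 0 without overlap, while in WT cells at day 0 its values overlapped those of Notch2. In Notch1-/- cells at day 0, Notch3 and Notch2 overlapped too. The merged Notch4 locus had higher means than Notch3 in all 4 groups, of which the part of Notch4 cannot be told apart.

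Summed over Notch1, Notch2 and Notch3, receptor transcript levels per length were lower in Notch1-/- embryoid bodies even with Notch1 set aside. The sum of all 3 at day 6 was 31.0, 29.0 and 23.2 FPKM in Notch1-/- libraries, against 48.4, 45.7 and 41.8 FPKM in WT libraries. Without Notch1 it was 30.6, 28.7 and 22.9 FPKM in Notch1-/- libraries, against 43.9, 42.1 and 37.9 FPKM in WT libraries. The genotypes did not overlap in either sum, and Notch3 gave most of the gap. At day 0 the sum without Notch1 was 18.9, 11.8 and 14.6 FPKM in Notch1-/- libraries, against 25.9, 14.7 and 16.7 FPKM in WT libraries, and here the genotypes overlapped, while the Notch1-/- library was lower in each of the 3 same-numbered pairs. At day 6 Notch1 gave 0.952% to 1.39% of the sum in Notch1-/- libraries, against 8.0% to 9.33% in WT libraries. Its share at day 0 was 1.32% to 3.47% in Notch1-/- libraries, against 16.1% to 24.5% in WT libraries. These sums are descriptions and carry no test.

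**Figure D3:**
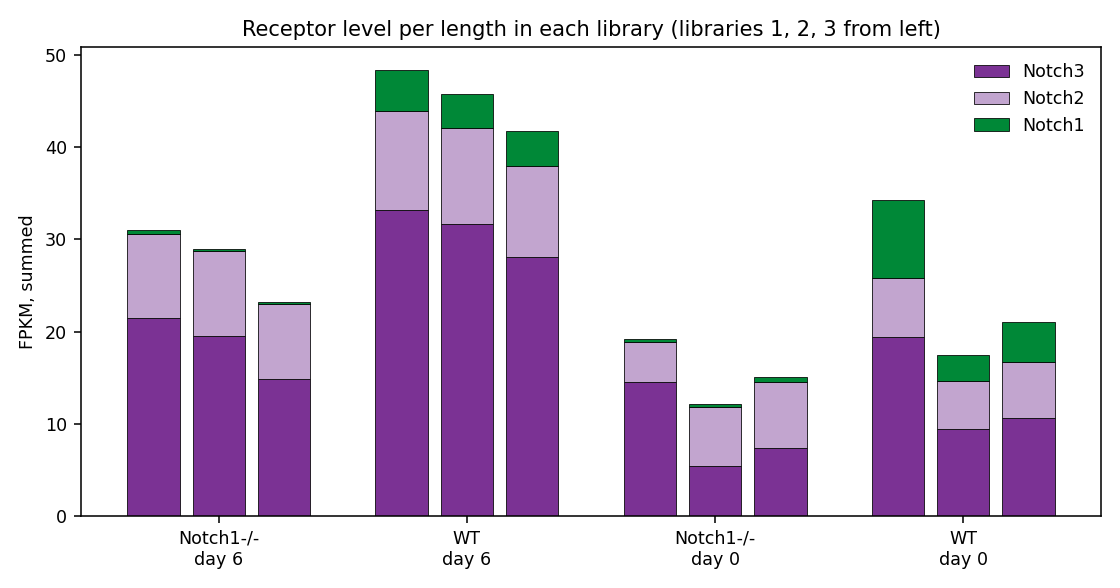
FPKM of Notch3, Notch2 and Notch1 stacked for each of the 12 libraries (y axis, summed FPKM; x axis, libraries 1, 2 and 3 by group). The Notch1-/- day 6 stacks reach 23.2 to 31.0 FPKM and the WT day 6 stacks 41.8 to 48.4 FPKM, and the Notch1 layer is thickest in WT libraries at day 0.

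Among the ligands, Dll1 and the Dll3 locus differed most between genotypes at day 6, both in the same direction. How much of the merged Dll3 locus comes from Dll3 cannot be told apart. The promoter windows of Dll1 and Dll3 are shown because Dll1 and that locus moved together. Each runs from 250 bases before to 50 bases after the annotated start (RefSeq, GRCm38.p6, minus strand, read in the direction of transcription), and capitals mark the 50 bases from the start on. For both, the first exon of the annotated transcript matches a deposited model (637 bases for Dll1 and 102 bases for Dll3), and some deposited models start up to 244 and 666 bases further upstream.
Dll1, chr17:15375774-15376073: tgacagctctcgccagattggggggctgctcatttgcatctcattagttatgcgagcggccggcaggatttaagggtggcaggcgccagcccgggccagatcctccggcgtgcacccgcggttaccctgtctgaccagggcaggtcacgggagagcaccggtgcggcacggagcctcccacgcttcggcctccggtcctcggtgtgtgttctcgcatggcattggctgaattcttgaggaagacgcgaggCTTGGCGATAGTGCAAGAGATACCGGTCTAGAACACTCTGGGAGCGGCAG
Dll3, chr7:28301736-28302035: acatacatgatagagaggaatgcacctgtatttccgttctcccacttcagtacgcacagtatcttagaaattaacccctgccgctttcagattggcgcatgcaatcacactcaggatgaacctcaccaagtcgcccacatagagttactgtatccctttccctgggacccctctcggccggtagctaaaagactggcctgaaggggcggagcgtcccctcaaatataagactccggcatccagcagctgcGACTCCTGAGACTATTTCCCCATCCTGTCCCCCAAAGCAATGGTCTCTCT
The windows of Dll1 and Dll3 have 62.7% and 52.0% G and C, where the median of all 32851 windows is 52.7%. The 3 motifs were searched on both strands, with overlapping matches allowed. The RBPJ core TGGGAA occurred in 25.6% of all windows, the T-box core GGTGTGA in 3.98% and the TCF/LEF core CTTTGAT in 3.73%, and none occurred in the 10 windows of the 9 genes. This says only that those letters are not in these windows.

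Dll1, an activating ligand, rose in Notch1-/- embryoid bodies. Its locus (XLOC_015451, chromosome 17, 15504316 to 15513031, minus strand) shares no exon length with others. At day 6 it had 28.7, 21.2 and 20.2 CPM in Notch1-/- libraries, against 3.16, 2.44 and 3.32 CPM in WT libraries. Every Notch1-/- library stood far above every WT library. The fold was 7.84 (log2 2.97, SE 0.60, edgeR adjusted p = 0.00292), with a 95% interval of 3.20 to 19.2, and limma gave 1.68 on the log2(FPKM + 1) scale (adjusted p = 0.0113).

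At day 0 the direction was the opposite, and the WT libraries differed widely among themselves. Dll1 had 2.98, 2.43 and 4.87 CPM in Notch1-/- libraries, against 19.0, 2.70 and 26.6 CPM in WT libraries. WT library 2 lay inside the Notch1-/- range, and it also had the lowest feeder marker sum of the WT day 0 libraries (1340 CPM, against 2240 and 4080 CPM). In Notch1-/- day 0 libraries 1, 2 and 3 the feeder marker sum was 689, 1990 and 2730 CPM, beside the low Dll1 values above. The part of the feeder cells in the Dll1 values was not tested. The log2 fold change was -2.23 (SE 0.58, edgeR adjusted p = 0.0306). The call was lost without WT library 1 (-2.10, adjusted p = 0.0884), without WT library 3 (-1.67, 0.109), without Notch1-/- library 2 (-2.03, 0.124), in a fit of the day 0 libraries alone (-2.21, 0.137) and on the FPKM scale (-1.14, 0.121 in limma).

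Dll3, the ligand that does not activate its neighbours' receptors, shares its locus (XLOC_032760, chromosome 7, 29061829 to 29087470, minus strand) with Selenov, a selenoprotein gene. The 9 exons of the Dll3 model (29078574 to 29086804) make up 11.8% of the exon length of the locus and overlap no other locus. At day 6 the locus had 53.8, 37.8 and 26.3 CPM in Notch1-/- libraries, against 3.10, 2.78 and 4.21 CPM in WT libraries. The groups did not overlap, with a fold of 11.7 (log2 3.55, SE 0.36, edgeR adjusted p = 2.79e-05). At day 0 it had 5.45, 2.50 and 2.92 CPM in Notch1-/- libraries and 7.67, 6.21 and 9.67 CPM in WT libraries. Those groups did not overlap either, and the log2 fold change of -1.12 (SE 0.33) had an adjusted p of 0.0523. Of 23 alternative settings, 17 did not call the day 0 difference and 6 did. It passed with the replicate numbers as a block (-1.17, adjusted p = 0.0253), though not with that block and the day 0 libraries alone (-1.16, 0.0626). It passed in DESeq2 (-1.07, 0.0172) and with no filter on low counts (-1.10, 0.0466). It also passed without WT library 2 (-1.25, 0.0261), without Notch1-/- day 0 library 1 (-1.53, 0.00850) and without Notch1-/- day 6 library 3 (-1.11, 0.0453). The shares of Dll3 and Selenov in these counts cannot be told apart.

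Some genes of the presomitic mesoderm, the tissue known for Dll1 and Dll3, differed at day 6 too. Of 9 listed markers, 5 could be linked and tested, which left out Tbx6, Msgn1, Mesp2 and Fgf8. Among the 5, 2 were higher and 2 lower in Notch1-/- embryoid bodies, where 13.7% of all loci were called higher and 14.4% lower. Wnt3a, a Wnt ligand of the tail bud, had 3.32, 3.83 and 2.33 CPM in Notch1-/- libraries and 0.182, 0.118 and 0.265 CPM in WT libraries (log2 4.06, SE 0.51). T, the brachyury gene, had a log2 fold change of 2.78 (SE 0.57), and 86.9% of the exon length of its locus is shared with others. Cdx2 (-3.12, SE 0.61) and Rspo3 (-1.28, SE 0.42) were lower. The 5 markers summed to 21.9 to 56.8 CPM in Notch1-/- libraries and 129 to 171 CPM in WT libraries, the opposite order to Dll1. That order depends on the scale on which T is read. T averaged 1.09 CPM in Notch1-/- and 0.158 CPM in WT libraries at day 6. Its FPKM averaged 125.8 in Notch1-/- and 17.1 in WT libraries. The part of such cells in the ligand values was not tested.

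Dll4, the ligand known from arterial endothelium, was rare in all libraries and fell at day 6. Its locus (XLOC_019776, chromosome 2, 119151445 to 119161402, plus strand) shares 6.15% of its exon length. It had 31, 31 and 19 counts in Notch1-/- libraries at day 6, against 150, 176 and 115 counts in WT libraries, or 0.279, 0.242 and 0.141 CPM against 1.24, 1.49 and 0.983 CPM. The groups did not overlap, and the log2 fold change was -2.49 (SE 0.61, edgeR adjusted p = 0.00942). At day 0 it had 35, 9 and 22 counts in Notch1-/- libraries and 103, 16 and 83 counts in WT libraries, with WT library 2 inside the Notch1-/- range (log2 -1.30, SE 0.61, adjusted p = 0.182). Without that library the day 0 value was -1.75 (adjusted p = 0.0255).

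Endothelial markers moved with Dll4 at day 6. Of 10 tested markers 8 were lower in Notch1-/- embryoid bodies and none higher, where 14.4% of all loci were called lower and 13.7% higher. Their sum was 178 to 351 CPM in Notch1-/- libraries and 455 to 686 CPM in WT libraries. Cdh5, the VE-cadherin gene of endothelial junctions, had 1.09, 0.975 and 1.68 CPM in Notch1-/- libraries and 59.93, 49.01 and 39.67 CPM in WT libraries. Emcn, the endomucin gene, was at 0 in 2 of the 3 Notch1-/- libraries at day 6. Whether the lower Dll4 lay in fewer endothelial cells or in less Dll4 per cell was not tested.

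Jag1, the ligand known from arteries and many epithelia, differed between genotypes at day 0. Its locus (XLOC_021161, chromosome 2, 136907016 to 136942817, minus strand) shares 31.0% of its exon length with an unnamed locus on the other strand, which had at most 0.0312 CPM in any library. At day 0 Jag1 had 10.38, 13.76 and 10.03 CPM in Notch1-/- libraries, against 19.0, 20.6 and 18.6 CPM in WT libraries. The groups did not overlap, and the log2 fold change was -0.77 (SE 0.17, edgeR adjusted p = 0.0143). The call was lost without Notch1-/- library 3 (-0.67, adjusted p = 0.0591) and in a fit of the day 0 libraries alone (-0.75, 0.160). At day 6 the order was reversed and again without overlap, at 23.3, 21.1 and 21.7 CPM in Notch1-/- libraries and 17.8, 19.8 and 15.6 CPM in WT libraries, but the difference of 0.32 (SE 0.17) had an adjusted p of 0.183. In a fit of the day 6 libraries alone it passed (0.32, 0.0408), where 52.8% of all loci were called.

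Jag2, a ligand known from epithelia and limb buds, rose in Notch1-/- embryoid bodies. Its locus (XLOC_007857, chromosome 12, 114145911 to 114169842, minus strand) shares no exon length with others. At day 6 it had 58.6, 56.3 and 50.5 CPM in Notch1-/- libraries, against 29.1, 21.2 and 27.3 CPM in WT libraries. The lowest Notch1-/- library stood well above the highest WT library, with a fold of 2.13 (log2 1.09, SE 0.28, edgeR adjusted p = 0.0119). Without WT library 2 it was 0.97 with an adjusted p of 0.0576. At day 0 it had 81.1, 42.9 and 36.8 CPM in Notch1-/- libraries and 94.8, 70.6 and 52.9 CPM in WT libraries. Those ranges overlapped, library 1 was highest in both genotypes, the Notch1-/- library was lower in each of the 3 same-numbered pairs, and the log2 fold change was -0.44 (adjusted p = 0.317). Without Notch1-/- library 1 it was -0.86 (adjusted p = 0.0263).

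**Figure D4:**
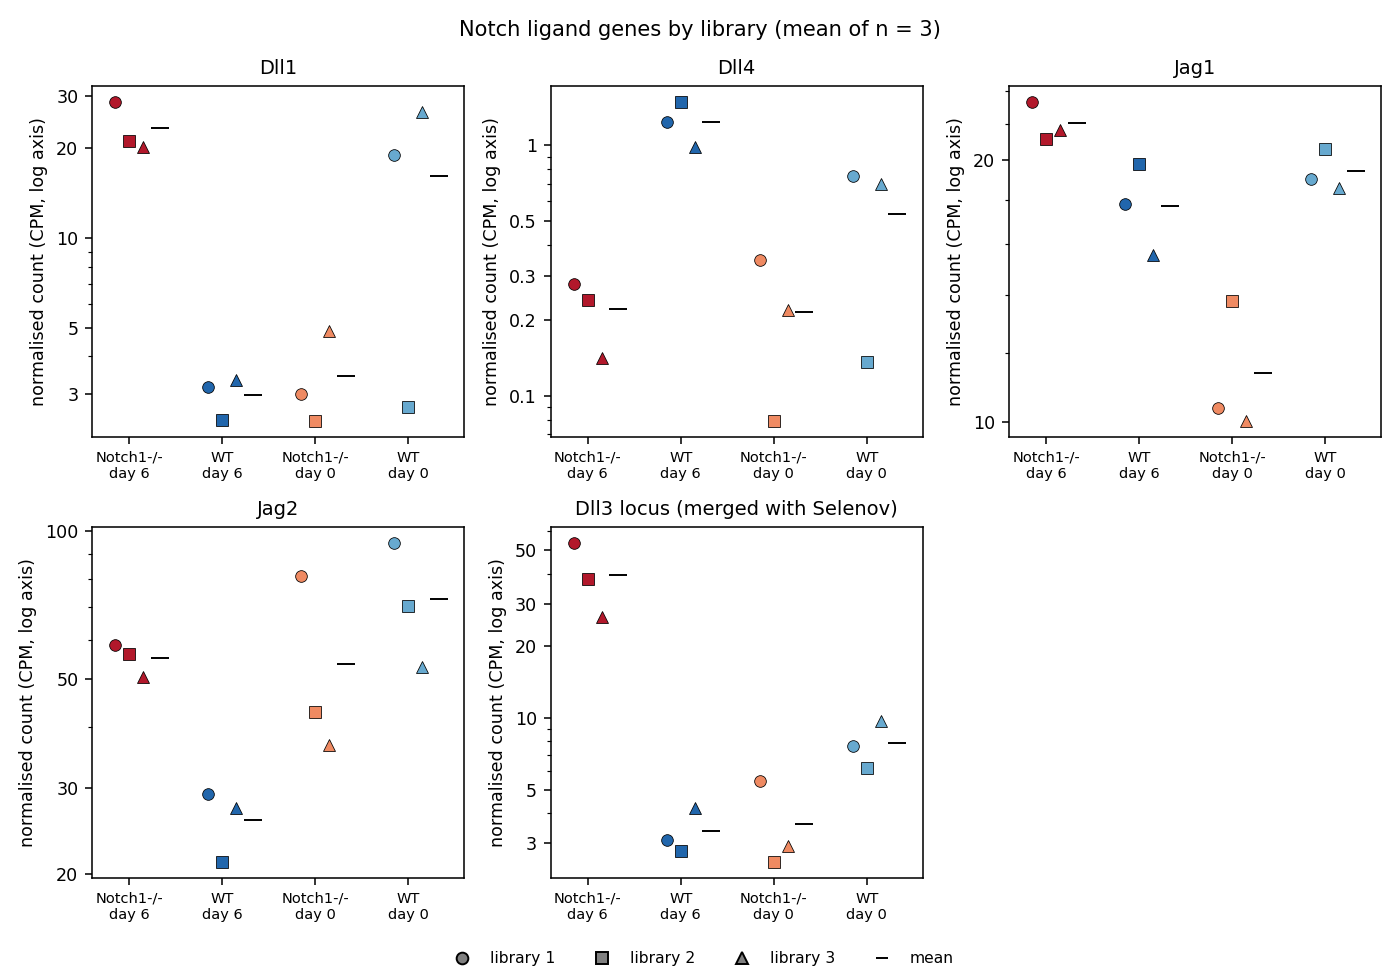
Normalised counts (CPM, logarithmic y axis) of Dll1, Dll4, Jag1, Jag2 and the merged Dll3 locus in each of the 12 libraries by group (x axis); the dash is the mean of 3 libraries. Dll1, Jag2 and the Dll3 locus are higher in all 3 Notch1-/- day 6 libraries than in the WT day 6 libraries, Dll4 is lower, and WT day 0 library 2 lies apart from the other 2 for Dll1 and Dll4.

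The day 0 calls were the least stable. With the replicate number as a block and all 12 libraries in the fit, 3 of the 7 genes and 13.9% of all loci were called at day 0. With the same block and the day 0 libraries alone, a setting added after the data were seen, which called 8.06% of all loci, only Notch1 of the 7 was called (-3.17, edgeR adjusted p = 0.00137), against 0.0620 for Dll1 (-1.79) and 0.0698 for Jag1 (-0.76). Without Notch1-/- day 0 library 1, 6 of the 7 genes and 16.2% of all loci were called.

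The next comparison asked how the same genes changed over 6 days within each genotype. In Notch1-/- cells, 4 of the 7 genes rose and none fell, where 35.9% of all loci were called, 17.2% higher and 18.7% lower. With upper quartile scaling 37.1% of the calls over all loci were higher, against 47.8% with TMM, and the median of all loci shifted to -0.18, against -0.02. Dll1 rose by 2.77 (SE 0.59, edgeR adjusted p = 0.00325) and Jag1 by 0.95 (SE 0.17, adjusted p = 0.00109), both without overlap between days. Notch3 rose by 1.00 (SE 0.30, edgeR adjusted p = 0.0196) and Notch2 by 0.50 (SE 0.17, adjusted p = 0.0356). Neither receptor call held under all settings. With all libraries in, Notch2 was lost with upper quartile scaling (0.33, adjusted p = 0.155), DESeq2's size factors (0.45, 0.0646), DESeq2's own test (0.45, 0.0701), a filter of at least 1 CPM in 3 libraries (0.38, 0.107) and only the groups compared (0.47, 0.103). Notch3 was lost on the unfiltered FPKM scale (1.04, 0.0519 in limma). Both were lost without Notch1-/- day 6 library 1 (0.89, adjusted p = 0.0653 for Notch3, and 0.48, 0.0931 for Notch2) and without Notch1-/- day 6 library 2 (0.95, 0.0534, and 0.46, 0.105). Notch2 was lost without Notch1-/- day 0 library 1 (0.28, 0.0852), and Notch3 without Notch1-/- day 0 library 2 (0.74, 0.0763) or library 3 (0.84, 0.0816). Jag2 (0.04, adjusted p = 0.925), Dll4 (0.04, 0.970) and Notch1 (0.44, 0.243) did not pass. The Dll3 locus rose by 3.44 (SE 0.36, adjusted p = 3.26e-05). On the FPKM scale limma called 4 of 6 genes, where it called 35.1% of loci.

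In WT cells, 2 of the 7 genes rose over the 6 days and 2 fell, where 43.1% of all loci were called, 18.4% higher and 24.7% lower. Notch2 and Notch3 rose, with log2 fold changes of 0.83 (SE 0.17) and 1.26 (SE 0.30) and edgeR adjusted p = 0.00190 and 0.00455. Dll1 and Jag2 fell, by 2.44 (SE 0.58) and 1.49 (SE 0.28) on the log2 scale (edgeR adjusted p = 0.00502 and 0.00119). Notch1 (-0.27, adjusted p = 0.462), Jag1 (-0.13, 0.555) and Dll4 (1.22, 0.106) did not pass. Dll4 passed in limma on the unfiltered FPKM scale (0.17, adjusted p = 0.0224). Dll1 overlapped between days, since WT day 0 library 2 lay inside the day 6 range, and its call was lost on the log2(FPKM + 0.1) scale (-1.78, 0.0521) and without the FPKM filter (-1.16, 0.0685). The Dll3 locus also fell, by 1.22 (SE 0.33, adjusted p = 0.0100), a call that was lost without WT day 6 library 2 (-1.09, 0.0501) and on the FPKM scale (-0.54, 0.104 in limma). There limma called 4 of 6 genes in WT cells, where it called 44.4% of loci.

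The merged Notch4 locus fell over the 6 days in both genotypes by counts, by 2.92 in Notch1-/- cells (SE 0.57, edgeR adjusted p = 0.00180) and by 1.62 in WT cells (SE 0.53, adjusted p = 0.0269). On the FPKM scale the sign was the opposite, at 0.58 in Notch1-/- cells (limma adjusted p = 0.0732) and 0.89 in WT cells (0.00971). The WT count call was lost in 5 of the fits that left out 1 WT library (adjusted p 0.0502 to 0.0910), all but that without WT day 0 library 3.

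The change over 6 days was then compared between genotypes, as the day 6 change in Notch1-/- cells minus that in WT cells. This difference uses the same 12 libraries as the comparisons above and is not separate from them. By edgeR at an adjusted p below 0.05 it was called above 0 for 3 of the 7 genes and below 0 for none, where 11.3% of all loci were called, 6.36% higher and 4.92% lower. All 3 were ligands: Dll1 (5.20, SE 0.83, edgeR adjusted p = 0.00207), Jag2 (1.53, SE 0.39, 0.0256) and Jag1 (1.08, SE 0.24, 0.0124). The Dll3 locus had 4.66 (SE 0.48, adjusted p = 0.000192). No receptor passed, at 0.71 for Notch1 (adjusted p = 0.284), -0.33 for Notch2 (0.419; 95% interval -0.84 to 0.18) and -0.27 for Notch3 (0.738; -1.17 to 0.63), nor did Dll4 (-1.18, 0.414). On the FPKM scale limma called 3 of 6 genes, Dll1, Jag1 and Jag2, where it called 13.9% of loci. The Dll1 and Jag1 calls passed in each of the fits that left out 1 library. The Jag2 call was lost in 7 of those 12 fits, without WT day 0 library 1, WT day 6 library 2 or 3, Notch1-/- day 0 library 2 or 3, or Notch1-/- day 6 library 1 or 2 (1.30 to 1.57, adjusted p 0.0513 to 0.0783). Notch2 passed without Notch1-/- day 0 library 1 (-0.55, adjusted p = 0.0366).

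On the FPKM scale the ligands ranked differently in the 2 genotypes at day 6. Among ligands with a locus of their own, Jag2 was highest in Notch1-/- cells at 6.99 ± 0.485 FPKM, followed by Dll1 at 3.97 ± 0.831 and Jag1 at 3.94 ± 0.229, whose values overlapped, and Dll4 at 0.0416 ± 0.0143 (SD, n = 3). In WT cells Jag2 at 3.45 ± 0.622 and Jag1 at 3.30 ± 0.304 overlapped, and Dll1 at 0.539 ± 0.0848 and Dll4 at 0.247 ± 0.0525 lay below them without overlap. The merged Dll3 locus, whose level is not that of Dll3 alone, was at 10.8 ± 3.72 FPKM in Notch1-/- cells and 1.19 ± 0.215 FPKM in WT cells. At day 0 Jag2 was the highest of these 4 ligands in both genotypes, at 6.73 ± 3.25 FPKM in Notch1-/- cells and 9.96 ± 3.53 FPKM in WT cells. Jag1 followed at day 0 with 1.97 ± 0.257 FPKM in Notch1-/- cells and 3.75 ± 0.217 FPKM in WT cells, and then Dll1 with 0.564 ± 0.222 FPKM in Notch1-/- cells and 3.02 ± 2.31 FPKM in WT cells. In WT cells at day 0, Dll1 and Jag1 overlapped.

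Other genes of the pathway were counted from lists chosen by role. Among other ligands of the receptors, 2 of 5 tested genes were lower in Notch1-/- embryoid bodies and none higher. Of all loci tested, 14.4% were called lower and 13.7% higher. The list median was -0.51 on the log2 scale, against 0.01 over all loci tested. Dlk1, a ligand-like protein that lacks the receptor-activating domain, had 9.88, 7.16 and 4.39 CPM in Notch1-/- libraries and 304.8, 315.4 and 295.4 CPM in WT libraries (log2 -5.42, SE 0.61, edgeR adjusted p = 6.30e-05). Egfl7, a secreted protein of endothelium and also one of the endothelial markers, had 57.7, 46.6 and 55.3 CPM in Notch1-/- libraries and 111.7, 110.2 and 94.1 CPM in WT libraries (-0.99, SE 0.14, adjusted p = 0.000252). Both lay apart between genotypes.

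Among genes that act on the receptor, edgeR called 1 of 6, 1 of 6 and 2 of 4 in the lists of trafficking, cleavage and glycosylation, where 28.1% of all loci were called, and DESeq2 called 3, 2 and 3. Of the 6 genes of ligand and receptor trafficking (median -0.24), the one edgeR called was Numb, an endocytic adaptor that counteracts Notch, at -0.89 (SE 0.19, edgeR adjusted p = 0.00376). Of the 6 cleavage genes (median -0.21) it was Adam10, the protease of the first ligand-induced cut, with 80.3, 82.3 and 73.5 CPM in Notch1-/- libraries and 118.4, 136.6 and 131.0 CPM in WT libraries (-0.71, SE 0.12, adjusted p = 0.00125). Of 4 glycosylation genes (median 0.68), 1 was higher and 1 lower. Lfng, the fringe enzyme that tunes which ligands a receptor answers, had 10.8, 7.62 and 9.48 CPM in Notch1-/- libraries and 3.30, 3.76 and 3.12 CPM in WT libraries (1.45, SE 0.30, adjusted p = 0.00337). Pofut1, which adds the fucose that fringe extends, was at -0.63 (SE 0.11, adjusted p = 0.00119).

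Of 8 tested genes of the nuclear complex and of receptor turnover (median 0.27), edgeR called 1, where 28.1% of all loci were called. This was Fbxw7, which marks the intracellular part of the receptor for breakdown, at 0.43 (SE 0.13, edgeR adjusted p = 0.0216). Rbpj itself had 28.0, 34.2 and 32.3 CPM in Notch1-/- libraries and 27.9, 28.8 and 31.0 CPM in WT libraries (0.11, SE 0.22, adjusted p = 0.753), and the groups overlapped. Of 5 tested target genes (median -0.27), Hey2 and Heyl fell and Hes5 rose, where 14.4% of all loci were called lower and 13.7% higher. Hey2, a repressor of heart and arteries, had 3.57, 2.25 and 2.09 CPM in Notch1-/- libraries and 49.1, 53.9 and 32.8 CPM in WT libraries (-4.10, SE 0.40, adjusted p = 1.95e-05). Heyl (-2.37, SE 0.38, adjusted p = 0.000744) and Hes5 (2.32, SE 0.72, 0.0302) were rare, with Hes5 at most 0.424 CPM in any day 6 library. Hes1 had 0 counts in all 12 libraries, and 99.7% of the exon length of its locus is shared. Its FPKM was 31.42 to 45.95 in Notch1-/- libraries and 43.95 to 50.02 in WT libraries at day 6.

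At day 0 edgeR called 0 of the 34 tested genes of these 6 lists, where 9.56% of all loci were called. An unadjusted p under 0.05 was reached by 6 of them. DESeq2 called 2, where it called 15.5% of all loci. Of the 26 that passed the FPKM filter limma called none, where it called 6.2% of loci. The change over 6 days differed between genotypes for Dlk1 (-6.55, SE 0.79, edgeR adjusted p = 0.000383), Egfl7 (-0.98, SE 0.19, 0.00673), Adam10 (-0.74, SE 0.18, 0.0179) and Hey2 (-3.73, SE 0.52, 0.000926), and edgeR called no other of the 34 tested genes. These are 4 of the 34 genes, close to the 11.3% of all loci that edgeR called. An unadjusted p under 0.05 was reached by 12 of the 34, and DESeq2 called 10, where it called 17.1% of all loci. All 4 that edgeR called were in the negative direction, while the 3 ligand genes above were in the positive one.

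**Figure D5:**
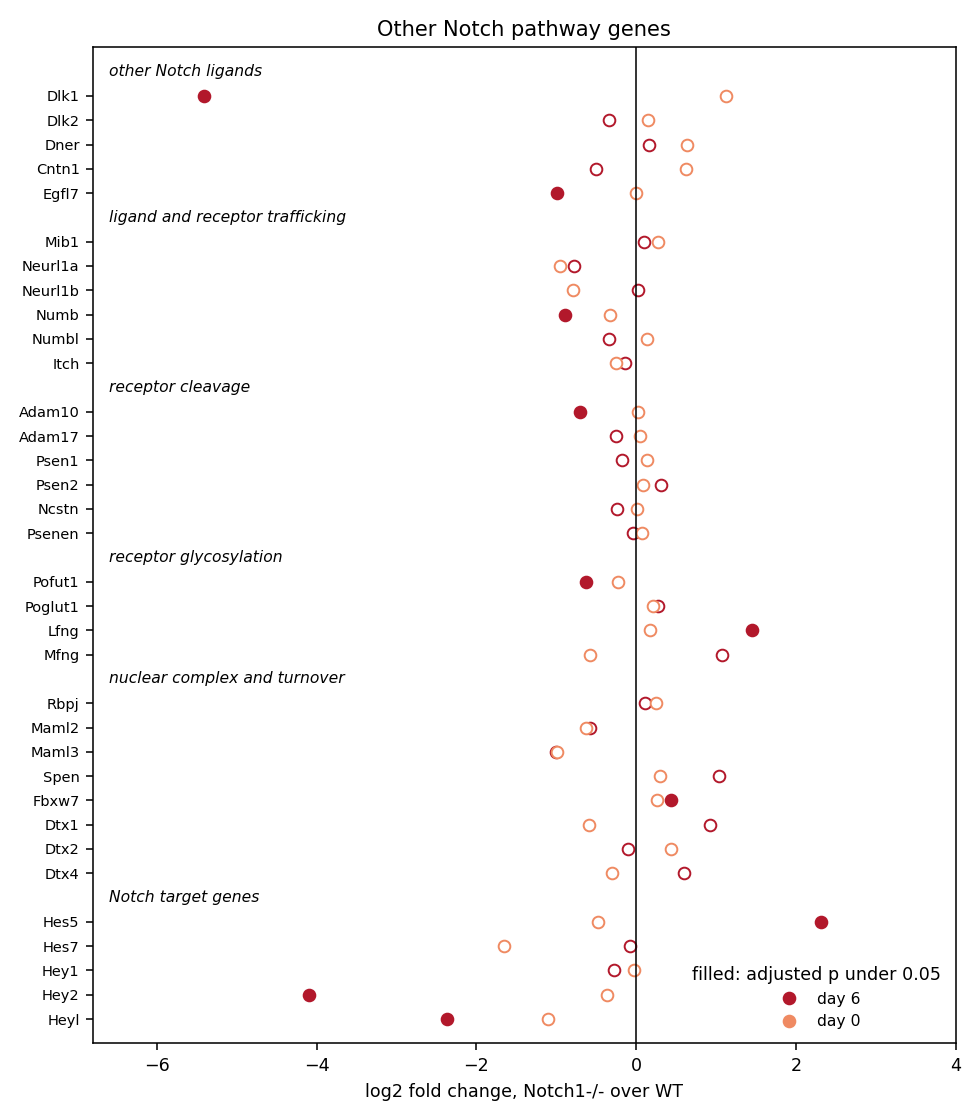
Log2 fold change, Notch1-/- over WT (x axis), of tested genes of 6 other Notch pathway lists (rows, grouped by role) at day 6 (dark) and day 0 (light); filled points have an edgeR adjusted p under 0.05. All filled points are day 6 points, with Dlk1 (-5.42) and Hey2 (-4.10) farthest left and Hes5 (2.32) farthest right.

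The genes whose levels ran most like each member were read from Pearson correlations of log2 CPM over the 12 libraries, among 7606 named loci. The values describe these libraries, which share 4 groups, and carry no test. Notch1 ran most like Exd1 (r = 0.950), Hadha (0.945) and Ccdc138 (0.935), Notch2 like Mospd1 (0.977), Mosmo (0.966) and Tgfbr3 (0.961), and Notch3 like Rora (0.985), Pacs1 (0.979) and Plcg1 (0.972). Dll1 ran most like Pitpnm1 (0.956), Rasd2 (0.943) and Plekhh2 (0.939), and the Dll3 locus like Epha1 (0.952), Nr6a1 (0.938) and Amph (0.936). For Dll4 the closest were Cyp4f16 (0.957), Agpat4 (0.956) and Arfgap3 (0.953), for Jag1 Chd7 (0.908), Proser1 (0.862) and Slc43a1 (0.851), and for Jag2 Porcn (0.947), Clstn1 (0.931) and Spire2 (0.927). Jag1 had the lowest top correlation of the members.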

How the data were processed

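The 12 libraries were made from poly(A) RNA and read from both ends, per the labels. Tools listed in the submitters' processing notes are DESeq, HTSeq 0.5.4p3, TopHat2 2.0.8 and Cufflinks 2.1.1, with build mm9. How strand was set is not given in the sources used here. Tables deposited by the submitters hold raw counts for each merged locus. They also hold FPKM values, which the authors normalised per length and library, and 144343 transcript models.

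Symbols came from matching consecutive intron, exon and intron lengths to GENCODE vM21 transcripts, with no coordinates converted. Of 40039 loci, 15770 were linked to 1 gene and 1253 to several, and lookups on a wrong chromosome gave 0 matches. Loci with 50% or more of their exon length shared numbered 4677.

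Counts were tested with edgeR 4.0.16 (R 4.3.3; quasi-likelihood test, TMM, default filter), with all 12 libraries in 1 fit, a mean per group and Benjamini-Hochberg adjustment over 23991 loci. The second readout was limma 3.58.1 on log2(FPKM + 1) over the 13371 loci with an FPKM of at least 1 in 3 libraries. That scale understates changes of low genes, and it left out Dll4. The fits were tested on simulated data. Alternatives were DESeq2 1.42.0, other scalings and filters, subsets of libraries and a replicate block.

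Replicate numbers come from the labels. Deviations of same-numbered libraries from their group means correlated at 0.398, 0.275 and 0.165 between the genotypes at day 0. The labels give the numbers only and do not call these libraries pairs. Notch1-/- library 3 and WT library 2, of unlike numbers, correlated at 0.132. Reading the numbers as pairs, in the day 0 descriptions and in the alternative fits with a replicate block, thus rests on these data alone. How many of all loci were lower in every same-numbered pair was not counted. The main fit held no pairing, so its day 0 p-values and counts of calls are unpaired. At day 6 same-numbered libraries did not pair (0.118, 0.082 and -0.011).

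The genes, lists and tests were chosen with earlier results of these data known. The rule named the members, up to 4 genes per pathway list with the smallest p, and the 3 loci most like each member. Of the marker and pathway lists, genes that could not be linked were left out.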

Additional observations from a re-analysis of the deposited data

Results flagged for a closer look

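For 3 ligand genes and the merged Dll3 locus, the effect of 6 days differed between the genotypes by edgeR's test of the difference itself. The difference, Notch1-/- minus WT on the log2 scale, was 5.20 for Dll1, 4.66 for the Dll3 locus, 1.08 for Jag1 and 1.53 for Jag2. The Dll1 value rests in part on WT libraries that differ widely at day 0 (19.0, 2.70 and 26.6 CPM). It was 4.64 to 5.68 when any 1 library was left out, and 2.82 on the log2(FPKM + 1) scale. The Dll3 locus ran from 4.37 to 5.06 when any 1 library was left out.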

How the results depend on the processing

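Of 1130 values under alternative settings, 1032 kept their direction and side of the threshold, 53 lost a call, 17 gained one, 23 changed sign and 5 are counts that moved by over 1.5 times. The causes were not tested. Notch1 on both days, Dll1, Dll4 and the Dll3 locus at day 6, and the Dll1, Jag1 and Dll3 locus differences between genotypes in the change over 6 days, were called under every setting that tested them. At day 6 Notch3 was called with only the groups compared (-0.65, edgeR adjusted p = 0.00509), where 52.8% of all loci were called. It was also called with the replicate block (-0.68, 0.0239), where 32% were, and ran from -0.76 to -0.51 when 1 library was left out. At day 0 Notch2 was -0.0056 on the log2(FPKM + 1) scale, with or without the filter, and -0.0099 with a pseudocount of 0.1. Leaving out 1 library gave 0.038 to 0.37 for Notch2 and -0.86 to -0.12 for Notch3 at day 0. The number of the 7 genes called at day 0 was 1 with only the groups compared (3.25% of all loci). It was also 1 with the replicate block on the day 0 libraries alone (8.06%), and that gene was Notch1 both times. When 1 library was left out it was 2 to 6, where 4.39% to 23.4% of all loci were called. Over 6 days in Notch1-/- cells the number was 2 to 4 over all settings, where 19.6% to 39.7% of all loci were called. The replicate block called 5 genes at day 6 (32% of all loci) and 3 at day 0 (13.9%). Over 6 days it called 4 in WT cells (45.9%) and 4 in Notch1-/- cells (39.2%). In the difference between genotypes it called 3 (13.5%). Same-numbered day 6 libraries do not pair.

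Signs that changed were mostly of small or merged values. Over 6 days in Notch1-/- cells Notch1 was -0.072 and the Notch4 locus 0.58 on the log2(FPKM + 1) scale, with or without the filter, and -0.22 and 0.61 with a pseudocount of 0.1. In WT cells the Notch4 locus was 0.89, 0.89 and 0.92 in the same 3 settings, and Notch1 ran from -0.51 to 0.18 when 1 library was left out. In Notch1-/- cells Dll4 was -0.12 and Jag2 -0.11 with upper quartile scaling, and -0.076 and -0.069 with a filter of at least 1 CPM in 3 libraries. Upper quartile scaling moved the median of all loci over 6 days to -0.18 in Notch1-/- and -0.29 in WT cells, against -0.02 and -0.12 with TMM, and the share of calls that were higher to 37.1% and 33.0%, against 47.8% and 42.7%. Leaving out 1 library gave -0.38 to 0.55 for Dll4 and -0.19 to 0.46 for Jag2 over 6 days in Notch1-/- cells, and -0.54 to 0.19 for the Notch3 difference between genotypes. Over all loci, a fit of the day 0 libraries alone called 706 loci, against 2294, and one of the day 6 libraries alone 11055, against 6741. Depth limits Dll4 most, at 9 to 176 counts per library.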
